A study of Mus musculus with 6 samples.

Results

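The genes described here are amino acid transporters of 7 solute carrier families, SLC1, SLC3, SLC6, SLC7, SLC36, SLC38 and SLC43. They are the protein-coding genes whose symbol is one of these family prefixes followed only by a member number, without the imprinted gene Slc38a4. The rule found 60 genes among the 55471 gene identifiers counted in each library. It uses names only, so no measured value chose a member. It leaves out Slc6a20a, Slc6a20b and Slc7a6os, whose symbols end in letters. Several members of SLC6 carry neurotransmitters, creatine or taurine and not amino acids of protein, and Slc43a3 carries purine bases.

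The libraries come from mouse epiblast stem cells, pluripotent cells of the post-implantation epiblast type, grown for 2 days as embryoid bodies in serum. An aggregation step of 24 h is given for both groups. One group is labelled Mixl1 KO (3 libraries, called knockout below) and the other Mixl1 induced D1Dox (3 libraries, called induced). Mixl1 encodes a homeobox factor of the primitive streak. The inducible line was given doxycycline at 1 µg/mL during the 24 h before collection, and the labels do not say whether the knockout cells were given it. All cells had been kept with bFGF (10 ng/mL) and Activin A (20 ng/mL) on irradiated mouse embryonic fibroblasts, and the labels name neither the clones, nor the parent line, nor which part of Mixl1 was altered. The effect of Mixl1 therefore cannot be told apart from other differences between the lines or from the drug. Nothing says that the 3 libraries of a group came from separate cultures, so the p-values measure the spread between these libraries, which may be technical.

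Cells take up amino acids through carriers with overlapping substrates, and the mix of carriers sets which amino acids enter, which leave in exchange, and whether sodium drives the transport. Some SLC7 carriers are light chains that reach the surface only when joined to a heavy chain of SLC3. SLC1, SLC6 and SLC38 carriers use sodium gradients, and some SLC36 carriers use protons, often at lysosomes. In early embryos and pluripotent cells, leucine, glutamine, glycine, proline and cystine carriers feed growth through the kinase complex mTORC1, one-carbon metabolism and the synthesis of glutathione.

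The 6 libraries held 17490426 to 21026423 reads on genes. Mixl1 stood at 39.8 ± 2.96 CPM (SD, n = 3) in the knockout and 432.5 ± 7.54 CPM (SD, n = 3) in the induced libraries, where CPM is reads per 1e6 reads on genes after scaling of the libraries. All 10 epiblast markers checked were detected, 5 higher and 5 lower in the induced group, with a summed level of 2025 to 2154 CPM in knockout and 1540 to 1582 CPM in induced libraries. Most of that difference was Pou5f1, without which the sums were 778.4 to 819.4 CPM and 738.3 to 765.8 CPM. Macrophage markers were lower in the induced group in 9 of 9 tested cases, with sums of 64.1 to 95.1 CPM against 15.9 to 20.5 CPM, and Cx3cr1 at or near 0 in every library. Fibroblast markers, which would include feeder cells, summed to 596.4 to 756.6 CPM against 423.1 to 588.0 CPM, with 3 of 10 higher and 5 lower, and without Col1a1 the sums overlapped. Of 7 tested trophoblast markers, 4 were higher and 3 lower, and Prl3d1 had no read. Their sum was 189.2 to 243.0 CPM in knockout and 76.8 to 83.8 CPM in induced libraries, but without Cdx2 it was higher in the induced libraries, at 64.6 to 69.0 CPM against 25.5 to 31.6 CPM. Visceral endoderm markers (3 of 4 tested lower, Ttr and Hnf4a without a read) summed to 22.9 to 27.3 CPM in knockout and 11.2 to 12.9 CPM in induced libraries. In bulk samples, fewer cells of a type and less RNA per cell cannot be told apart.

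Of the 60 genes, 41 had enough reads to be tested between the groups. The other 19 had at most 11 reads in any library, and 6 of them had none. Among the 41, 14 rose and 16 fell in the induced group at an adjusted p under 0.05 (edgeR quasi-likelihood test, two-sided, Benjamini-Hochberg adjustment over all 15091 tested genes). Over all tested genes 62.6% passed, with 31.0% higher and 31.6% lower. The 30 of 41 transporter genes are 73.2%, so most of this share is also found over the genes at large. A rise of at least 2-fold was estimated for 6 transporter genes (6.47% of all tested genes) and a fall of that size for 7 (9.67% of all tested genes). For 33 of the 41 (80.5%) every library of one group lay above every library of the other, against 67.1% of all tested genes. The median log2 fold change was 0.12 over the 41 and 0.00380 over all genes, and the median size regardless of sign was 0.70 and 0.32. Every log2 fold change below is induced over knockout and every adjusted p is from this edgeR test.

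To compare levels between genes, CPM was divided by the length of a gene's merged exons in kb. Per kb, 10 genes held 80.5% of the summed level of all 60 in knockout libraries and 86.0% in induced libraries. The summed level was 377.4 ± 5.62 CPM per kb (SD, n = 3) in knockout and 449.3 ± 22.6 CPM per kb (SD, n = 3) in induced libraries. The order by the mean over all libraries was Slc6a6, Slc3a2, Slc38a2, Slc7a5, Slc7a6, Slc38a10, Slc7a7, Slc6a8, Slc38a1 and Slc38a7, from 61.3 to 13.0 CPM per kb. Of neighbours in this order, Slc3a2 and Slc38a2 overlapped between libraries within both groups (51.6 and 53.7 CPM per kb in knockout, 65.7 and 62.1 CPM per kb in induced libraries), and the other 8 neighbouring pairs did not overlap within either group, though some changed places between the groups. In knockout libraries Slc3a2 and Slc38a2 led, and Slc6a6 came after them at 39.3 CPM per kb. In induced libraries Slc6a6 led with 83.3 CPM per kb. The order depended on the length used: with the longest coding transcript, Slc38a2 led in both groups, at 101.9 CPM per kb in knockout and 117.8 CPM per kb in induced libraries, against 53.8 and 113.9 CPM per kb for Slc6a6. Slc38a1 then moved from rank 9 to rank 4.

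**Figure D1:**
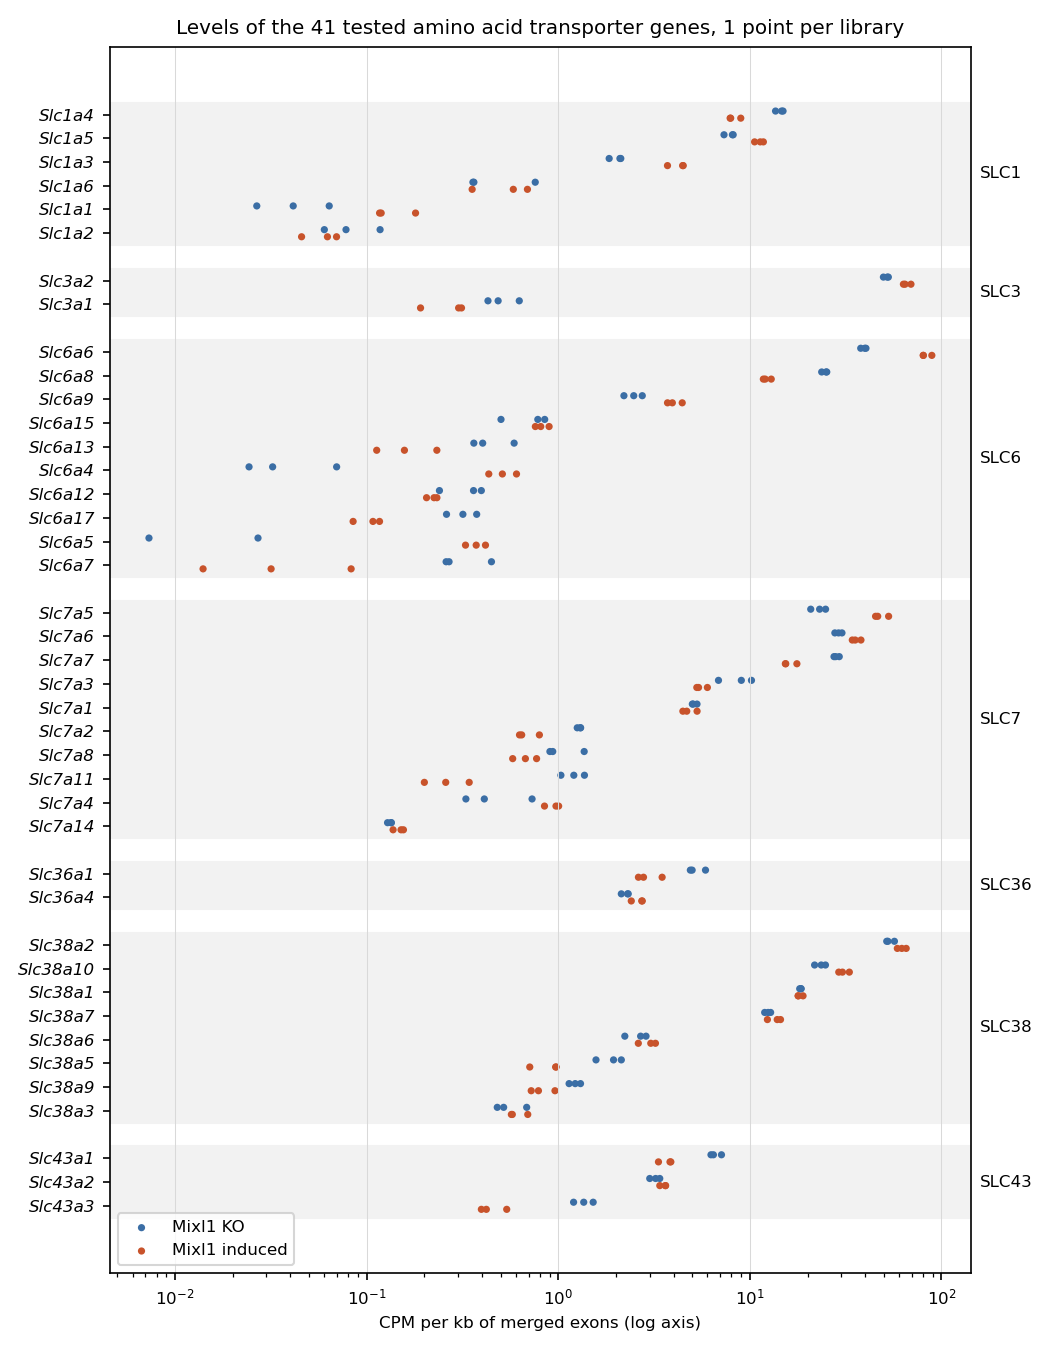
Level of each of the 41 tested transporter genes in each library, in CPM per kb of merged exons on a log axis, with 3 knockout (blue) and 3 induced (orange) points per gene, grouped by family. Slc6a6, Slc3a2 and Slc38a2 lie at the high end, and Slc6a5 in knockout replicate 2, at 0, is not drawn.

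The heavy chains went opposite ways. Slc3a2 (ENSMUSG00000010095.13, chromosome 19 from 8706882 to 8723369, minus strand, mm10) encodes 4F2hc or CD98, the heavy chain that carries most SLC7 light chains to the cell surface. It stood at 186.4, 184.0 and 175.6 CPM in the knockout libraries and 244.6, 227.9 and 223.4 CPM in the induced libraries. All 3 induced values lay above all 3 knockout values, and the log2 fold change was 0.35 (SE 0.047, adjusted p = 1.16e-06). Slc3a1 encodes rBAT, the heavy chain of the cystine and dibasic amino acid carrier of kidney. It was near the limit of detection, with 20, 20 and 27 reads in knockout and 9, 12 and 13 reads in induced libraries. Its log2 fold change was -0.94 (SE 0.32, adjusted p = 0.0141). The call was lost in DESeq2 (adjusted p = 0.105), with unstranded counts (0.122), without induced replicate 1 (0.0881) and without knockout replicate 3 (0.0748).

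Of 10 tested SLC7 genes, 3 rose, 5 fell and 2 did not pass, so the light chains of Slc3a2 changed unequally. Slc7a5 (ENSMUSG00000040010.10, chromosome 8 from 121881150 to 121907694, minus strand) encodes LAT1, which exchanges intracellular glutamine for leucine and other large neutral amino acids. It stood at 92.1, 85.7 and 77.1 CPM in knockout libraries and 196.5, 172.3 and 168.0 CPM in induced libraries. The groups were far apart, with a log2 fold change of 1.07 (SE 0.068, adjusted p = 9.50e-10). Slc7a6 encodes y+LAT2, an exchanger of arginine for neutral amino acids with sodium. It rose from 132.7, 126.9 and 138.2 CPM to 173.7, 156.5 and 162.1 CPM (log2 fold change 0.31, SE 0.050, adjusted p = 1.41e-05).

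Slc7a7 encodes y+LAT1, an exchanger of the same kind that is typical of epithelia and macrophages. It fell from 91.1, 97.1 and 92.9 CPM to 58.3, 51.0 and 50.8 CPM (log2 fold change -0.81, SE 0.058, adjusted p = 6.12e-11). It thus moved against Slc7a6, and no induced library reached a knockout library. Slc7a8, which encodes LAT2, a carrier of large and small neutral amino acids, fell from 5.35 to 3.37 CPM (log2 fold change -0.65, SE 0.18, adjusted p = 0.00335). Slc7a10, the light chain for D-serine and small neutral amino acids, had at most 5 reads in a library and was not tested.

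The largest fall in the family was that of Slc7a11 (ENSMUSG00000027737.10, chromosome 3, minus strand). It encodes xCT, which brings in cystine in exchange for glutamate and so supplies cysteine for glutathione. It stood at 16.8, 19.1 and 14.4 CPM in knockout libraries and 4.77, 3.60 and 2.78 CPM in induced libraries. The highest induced value lay below the lowest knockout value by a wide margin, and the log2 fold change was -2.15 (SE 0.15, adjusted p = 4.54e-10). The macrophage markers given above were also lower in all 3 induced libraries, and their part in the falls of Slc7a7 and Slc7a11 was not tested.

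The value of Slc7a11 depended on reading the strands apart. The annotated exons of Slc7a11 drew 2617 reads on the strand opposite to the gene over the 6 libraries, against 1176 on its own strand, or 69.0% of the reads. The opposite-strand level was 23.9, 17.9 and 23.7 CPM in knockout and 21.2, 25.4 and 25.6 CPM in induced libraries, so the groups overlapped. With unstranded counts the log2 fold change was -0.47 (SE 0.070, adjusted p = 3.60e-06), and the authors' deposited table lists -0.47 as well. The annotation holds a coding transcript of 551.1 kb (49892526 to 50443614) beside the usual one of 78.7 kb (50364938 to 50443611). Where along these exons the reads of either strand fell cannot be read from gene totals. Over the 41 tested genes the median share of opposite-strand reads was 0.172%, and 2 genes exceeded 10%, Slc7a11 and Slc3a1. The opposite-strand share of Slc3a1 was 89.8%, where Prepl overlaps it on the other strand.

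**Figure D2:**
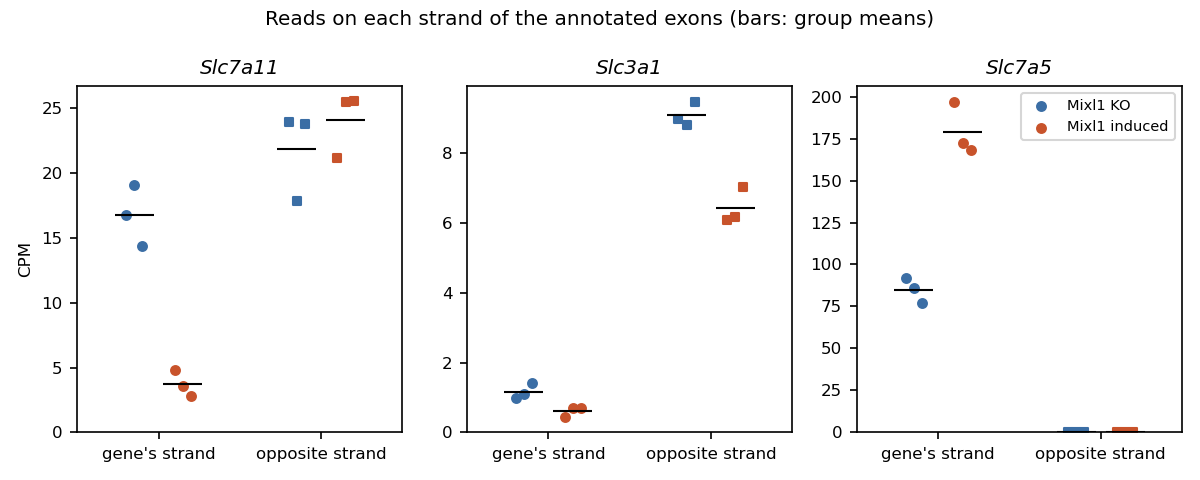
Reads in CPM on the gene's own strand (circles) and on the opposite strand (squares) for Slc7a11, Slc3a1 and Slc7a5, with 1 point per library, knockout in blue, induced in orange and bars at the group means. On its own strand Slc7a11 went from 16.7 to 3.72 CPM, while its opposite strand stayed between 17.9 and 25.6 CPM in all libraries; Slc7a5 had almost no opposite-strand reads.

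The promoters of members were searched for the composite site of ATF4, the factor through which shortage of amino acids raises many carrier genes. The windows came from RefSeq on GRCm38.p6, from 250 bases before to 50 bases after each annotated start, and 42 of the 60 genes were in the table. The motif was TGATGNAA on either strand. It occurred in 3.97% of all 32851 promoter windows, or for 4.51% of the 27025 genes of the table, and in windows of 4 of the 42 genes, namely Slc7a11, Slc1a4, Slc7a7 and Slc6a21, the last without a read in any library. The other 3 fell in the induced group, so the stretch from 150 bases before to 10 bases after their starts is shown 5′ to 3′ on the gene's strand, with matches in capitals. The Slc7a7 window belongs to the farthest upstream of its RefSeq starts, and the counts do not show which start was used.
Slc7a11 (chr3:50443604-50443763, minus strand): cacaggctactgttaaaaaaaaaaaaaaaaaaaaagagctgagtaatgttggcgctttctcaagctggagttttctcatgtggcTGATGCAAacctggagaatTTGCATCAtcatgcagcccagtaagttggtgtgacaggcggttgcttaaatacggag
Slc1a4 (chr11:20332704-20332863, minus strand): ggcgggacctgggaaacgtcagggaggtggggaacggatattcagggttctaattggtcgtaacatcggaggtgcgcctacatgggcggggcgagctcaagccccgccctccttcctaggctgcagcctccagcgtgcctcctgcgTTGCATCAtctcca
Slc7a7 (chr14:54417935-54418094, minus strand): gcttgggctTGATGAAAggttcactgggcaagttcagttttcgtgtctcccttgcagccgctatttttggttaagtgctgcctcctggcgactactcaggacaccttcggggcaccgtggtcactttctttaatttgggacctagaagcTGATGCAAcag

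The Slc7a11 window holds the motif on both strands, its matches beginning 66 and 47 bases before the start. The match of Slc1a4 begins 4 bases before its start. Among the 288 tested genes of the whole table with a match, 40.97% were lower and 27.4% higher in the induced group, against 31.2% lower and 33.3% higher of all 11013 tested genes in the table. The core of the antioxidant response element, TGACNNNGC, occurred in windows of 9 of the 42 genes and of 13.99% of all genes, and in 12.4% of all windows. Slc7a11 was not among the 9. The paired-class homeodomain dimer site, 2 inverted TAAT cores with 3 bases between them, which is the kind of site that MIXL1 can bind, occurred in none of the 42 and in 0.487% of all windows. A match is a description of the letters only.

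Summed per kb, the light chains of Slc3a2 stood at 82.5 ± 1.36 CPM per kb (SD, n = 3) in knockout and 101.3 ± 7.37 CPM per kb (SD, n = 3) in induced libraries. Their ratio to Slc3a2 was 1.60 ± 0.023 (SD, n = 3) and 1.54 ± 0.041 (SD, n = 3), and the ranges of 1.58 to 1.63 and 1.503 to 1.58 met at the edge. The make-up of the sum differed more than its size. Slc7a5 made up 25.7% to 29.7% of it in knockout and 46.7% to 48.3% in induced libraries, whereas Slc7a7 made up 32.9% to 35.3% and 15.8% to 16.03%. Slc7a6 kept a mean share of 35.2% and 35.5%, and Slc7a11 went from 1.46% to 0.262%. With the length of the longest coding transcript in place of merged exons, Slc7a5 went from 23.2% to 42.6% and Slc7a7 from 39.6% to 19.6%. By that length Slc7a7 had the highest mean share in knockout libraries. With merged exons its knockout shares overlapped those of Slc7a6, which were 33.5% to 37.3%.

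The cationic carriers, which bring in arginine and lysine without a heavy chain, fell or did not pass. Slc7a3 encodes CAT3, typical of embryonic and neural cells. It stood at 34.1, 38.6 and 25.9 CPM in knockout and 22.7, 20.0 and 20.4 CPM in induced libraries (log2 fold change -0.64, SE 0.12, adjusted p = 0.000804). Slc7a2, which encodes CAT2, fell from 11.8 to 6.30 CPM (log2 fold change -0.90, SE 0.12, adjusted p = 9.08e-07). Slc7a1, which encodes the widespread carrier CAT1, stood at 61.1, 57.8 and 58.3 CPM against 61.1, 51.5 and 54.0 CPM and did not pass (log2 fold change -0.09, SE 0.062, adjusted p = 0.238); without induced replicate 1 it did (log2 fold change -0.16, adjusted p = 0.0367). Per kb, Slc7a3 held 57.2% of the sum of the 3 genes in knockout and 50.3% in induced libraries, and Slc7a1 34.2% and 43.5%. With the longest coding transcript as length, Slc7a1 came slightly ahead in induced libraries (47.8% against 47.3%). Slc7a4, a relative of the cationic carriers whose transport function is unsettled, rose from 1.71, 3.03 and 1.37 CPM to 3.52, 4.17 and 4.04 CPM (log2 fold change 0.95, SE 0.23, adjusted p = 0.00114). Slc7a14, a lysosomal relative, did not pass, at 1.30 and 1.45 CPM.

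**Figure D3:**
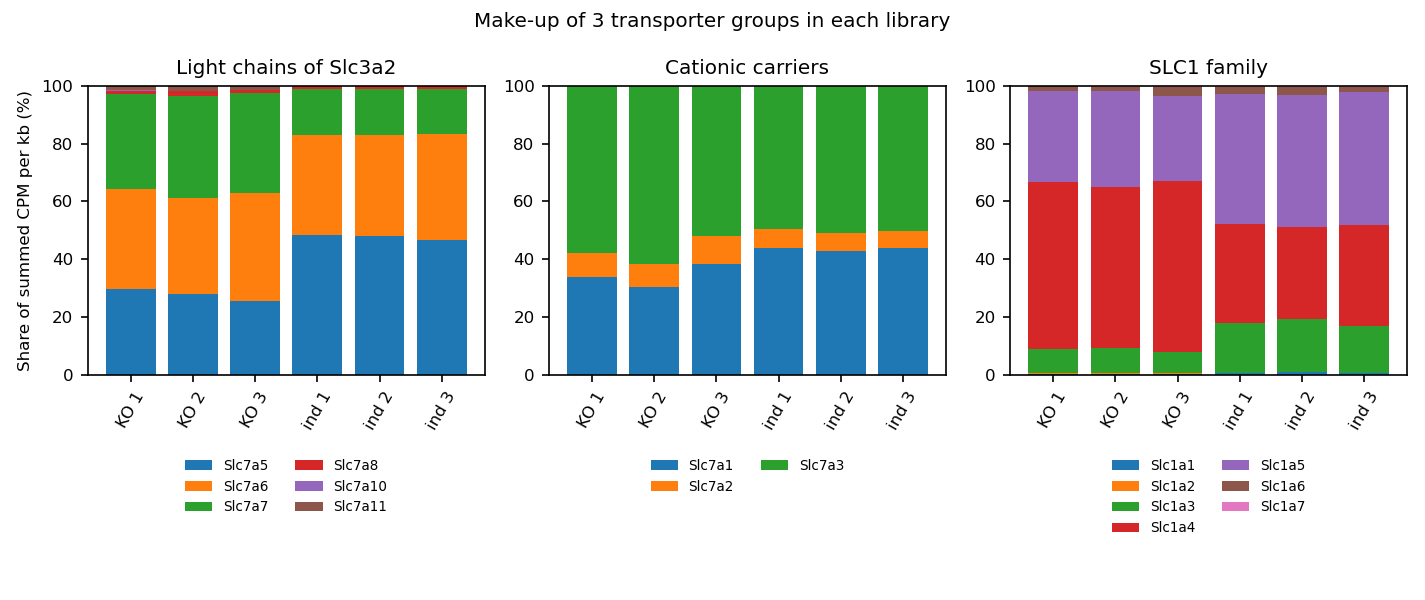
Share of each gene, in percent of the summed CPM per kb, among the light chains of Slc3a2 (left), the cationic carriers (middle) and SLC1 (right), with 1 bar per library (KO, knockout; ind, induced). Slc7a5 has the larger share in induced libraries and Slc7a7 in knockout libraries on the left, and Slc1a4 and Slc1a5 trade places on the right.

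SLC43 holds facilitators of large neutral amino acids that need no heavy chain. Slc43a1, which encodes LAT3, fell from 36.9, 35.8 and 40.6 CPM to 21.9, 22.1 and 19.1 CPM (log2 fold change -0.85, SE 0.076, adjusted p = 2.66e-09). Slc43a2, which encodes LAT4, stood at 30.1, 32.3 and 34.00 CPM against 36.5, 36.3 and 34.02 CPM and did not pass (log2 fold change 0.15, SE 0.067, adjusted p = 0.0609); it passed without induced replicate 3 (adjusted p = 0.0491) and without knockout replicate 3 (0.0262). Slc43a3, a purine base carrier, fell from 5.37, 6.06 and 6.79 CPM to 1.88, 1.77 and 2.40 CPM (log2 fold change -1.59, SE 0.18, adjusted p = 6.58e-08). Slc43a1 and Slc43a3 lie 73.0 kb apart on chromosome 2, on the same strand, and both fell. The gene of LAT3 thus went the opposite way from that of LAT1, with which LAT3 shares leucine as a substrate.

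Of 6 tested SLC1 genes, 3 rose, 1 fell and 2 did not pass. The family holds sodium-dependent glutamate carriers and the neutral exchangers ASCT1 and ASCT2. Slc1a4 encodes ASCT1, a carrier of alanine, serine and cysteine. It fell from 58.5, 53.5 and 57.5 CPM to 35.2, 31.0 and 31.2 CPM (log2 fold change -0.80, SE 0.065, adjusted p = 4.77e-10). Slc1a5 encodes ASCT2, a major importer of glutamine, and rose from 34.1, 33.8 and 30.6 CPM to 49.1, 47.3 and 44.2 CPM (log2 fold change 0.51, SE 0.066, adjusted p = 5.98e-07). The summed level of the family per kb was 24.96 ± 0.684 CPM per kb (SD, n = 3) in knockout and 24.5 ± 1.61 CPM per kb (SD, n = 3) in induced libraries. Within it Slc1a4 went from 57.6% to 33.7% and Slc1a5 from 31.5% to 45.8%.

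The glutamate carrier gene Slc1a3 (ENSMUSG00000005360.14, chromosome 15 from 8634124 to 8710764, minus strand) encodes GLAST, known from radial glia and astrocytes. It rose from 18.1, 17.9 and 15.7 CPM to 38.3, 38.1 and 31.7 CPM (log2 fold change 1.06, SE 0.085, adjusted p = 3.97e-10). Slc1a1, which encodes the glutamate and cysteine carrier EAAC1, rose from 7, 4 and 10 reads to 20, 26 and 18 reads (log2 fold change 1.62, SE 0.37, adjusted p = 0.000674). Its groups did not overlap, but its level per kb was among the lowest tested, and only induced replicate 2 was above 1 CPM (1.49 CPM). With unstranded counts the gene held 35 reads over all libraries, against 85 on its own strand, and was not tested. The authors' deposited DESeq2 table lists an adjusted p-value of 0.0580 for Slc1a1. Slc1a6 and Slc1a2, glutamate carriers of Purkinje cells and astrocytes, stood at 0.778 to 1.17 CPM in the group means and did not pass.

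Of 8 tested SLC38 genes, 2 rose, 2 fell and 4 did not pass. Slc38a2 (ENSMUSG00000022462.7, chromosome 15 from 96687392 to 96699730, minus strand) encodes SNAT2, a sodium-coupled carrier of small neutral amino acids that cells raise when amino acids are short. It stood at 457.8, 464.3 and 502.1 CPM in knockout and 548.7, 578.5 and 520.0 CPM in induced libraries. The groups were close but did not overlap (log2 fold change 0.21, SE 0.049, adjusted p = 0.000818). Its neighbour Slc38a1, which encodes the glutamine carrier SNAT1, stood at 318.8, 318.8 and 313.8 CPM against 326.5, 307.8 and 308.5 CPM (log2 fold change -0.01, SE 0.043, adjusted p = 0.815). The imprinted Slc38a4 lies on the other side of Slc38a2, 295.1 kb away, and went from 406.4 to 0.207 CPM. Slc38a1 and Slc38a2, 44.5 kb apart, thus differed far less between the groups than Slc38a4 did.

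Slc38a10, whose product is a carrier of glutamine, alanine and other amino acids, rose from 151.4, 159.3 and 139.8 CPM to 212.2, 195.3 and 186.9 CPM (log2 fold change 0.40, SE 0.055, adjusted p = 1.81e-06). Slc38a5 encodes SNAT5, a carrier of glutamine, serine and glycine, and lies on chromosome X. It fell from 4.78, 4.35 and 3.53 CPM to 1.59, 2.17 and 2.18 CPM (log2 fold change -1.10, SE 0.19, adjusted p = 4.04e-05). Slc38a9 encodes the arginine sensor and carrier of the lysosome that signals to mTORC1. It fell from 19.0, 21.8 and 20.5 CPM to 13.2, 16.1 and 12.1 CPM (log2 fold change -0.57, SE 0.0997, adjusted p = 3.49e-05). Slc38a7, the lysosomal exporter of glutamine and asparagine, stood at 49.5, 53.2 and 51.6 CPM against 57.6, 59.9 and 51.2 CPM and did not pass (log2 fold change 0.13, SE 0.062, adjusted p = 0.0765); it passed without induced replicate 3 (adjusted p = 0.0123). The log2 fold changes of Slc38a6 (0.19, adjusted p = 0.0967) and Slc38a3 (0.12, adjusted p = 0.614) did not reach the threshold. Slc38a6 passed without induced replicate 3 (adjusted p = 0.0299), without knockout replicate 1 (0.0295) and with the replicate number as a block (0.0330).

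The SLC36 genes include those of proton-coupled carriers of small amino acids. Slc36a1, which encodes the lysosomal and brush-border carrier PAT1, fell from 27.5, 33.0 and 28.1 CPM to 15.7, 19.6 and 14.7 CPM (log2 fold change -0.83, SE 0.099, adjusted p = 5.75e-07). Slc36a4, which encodes PAT4, a carrier tied to growth control through mTORC1, had a small rise from 14.7 to 17.2 CPM (log2 fold change 0.22, SE 0.090, adjusted p = 0.0345). That call was lost in DESeq2 (adjusted p = 0.112), with no filter on low counts (0.0574), without induced replicate 1 (0.118) or 2 (0.113) and without knockout replicate 1 (0.146). Slc36a2, 19.3 kb from Slc36a1, had 24 reads over the knockout and 3 over the induced libraries and was not tested. Slc36a3, in the same cluster, had none.

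SLC6 had the largest number of members, 19, of which 10 were tested, with 4 higher, 4 lower and 2 not past the threshold. Slc6a6 (ENSMUSG00000030096.8, chromosome 6 from 91684053 to 91759066, plus strand) encodes TauT, which takes up taurine, an osmolyte made from cysteine. It stood at 341.3, 336.4 and 320.5 CPM in knockout and 753.4, 680.4 and 679.2 CPM in induced libraries. The log2 fold change was 1.08 (SE 0.049, adjusted p = 1.69e-14). Per kb it rose by more than any other member. Slc6a8 (ENSMUSG00000019558.14, chromosome X from 73673150 to 73682502, plus strand) encodes the creatine carrier. It fell from 123.5, 131.3 and 130.2 CPM to 67.4, 62.7 and 61.3 CPM (log2 fold change -1.01, SE 0.052, adjusted p = 1.65e-13). The carriers of these 2 non-protein metabolites thus moved in opposite directions by about the same factor, 2.12-fold up and 2.01-fold down.

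The SLC6 genes of GLYT1 and GLYT2, sodium-coupled glycine carriers, both rose, whereas Slc38a5, which also carries glycine, fell as given above. Slc6a9, which encodes GLYT1, went from 12.7, 14.1 and 11.3 CPM to 20.2, 22.8 and 19.1 CPM (log2 fold change 0.70, SE 0.097, adjusted p = 1.70e-06). Slc6a5, which encodes GLYT2 of inhibitory spinal neurons, had 4, 0 and 1 reads in knockout and 49, 47 and 55 reads in induced libraries. The fitted log2 fold change of 4.85 (SE 0.44, adjusted p = 2.52e-09) rests on 5 knockout reads, and was 4.21 with unstranded counts. Slc6a4, which encodes the serotonin carrier, had 3, 2 and 6 reads against 48, 48 and 36 reads (log2 fold change 3.57, SE 0.36, adjusted p = 1.75e-08). Both genes were low in induced libraries too, at 2.68 and 2.34 CPM. The neuron markers summed to 186.1 to 223.9 CPM in knockout and 241.4 to 249.0 CPM in induced libraries, with 5 of 8 tested higher, 3 lower and none at 0 in every library. Without Tubb3 the sums overlapped, at 167.0 to 206.6 CPM and 179.9 to 189.7 CPM. The part of these markers in the rises of Slc6a5 and Slc6a4 was not tested.

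The remaining tested members of SLC6 fell or did not pass. Slc6a7, which encodes the brain proline carrier, went from 19, 28 and 17 reads to 1, 5 and 2 reads (log2 fold change -2.92, SE 0.49, adjusted p = 2.04e-05). Slc6a17, which encodes a vesicular carrier of neutral amino acids, went from 3.27, 3.86 and 2.68 CPM to 1.11, 1.20 and 0.874 CPM (log2 fold change -1.62, SE 0.23, adjusted p = 2.62e-06). Slc6a15, which encodes the neutral amino acid carrier of neurons B0AT2, did not pass, at 5.51 and 6.37 CPM. The GABA and betaine carrier genes Slc6a13 and Slc6a12 lie 5.34 kb apart on chromosome 6. Slc6a13 had 24, 31 and 20 reads against 14, 8 and 6 reads (log2 fold change -1.39, SE 0.34, adjusted p = 0.00127), and Slc6a12 had 15, 20 and 23 against 13, 12 and 13 reads (log2 fold change -0.58, SE 0.32, adjusted p = 0.119). The carriers of dopamine (Slc6a3) and noradrenaline (Slc6a2) had at most 6 reads in any library and were not tested.

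**Figure D4:**
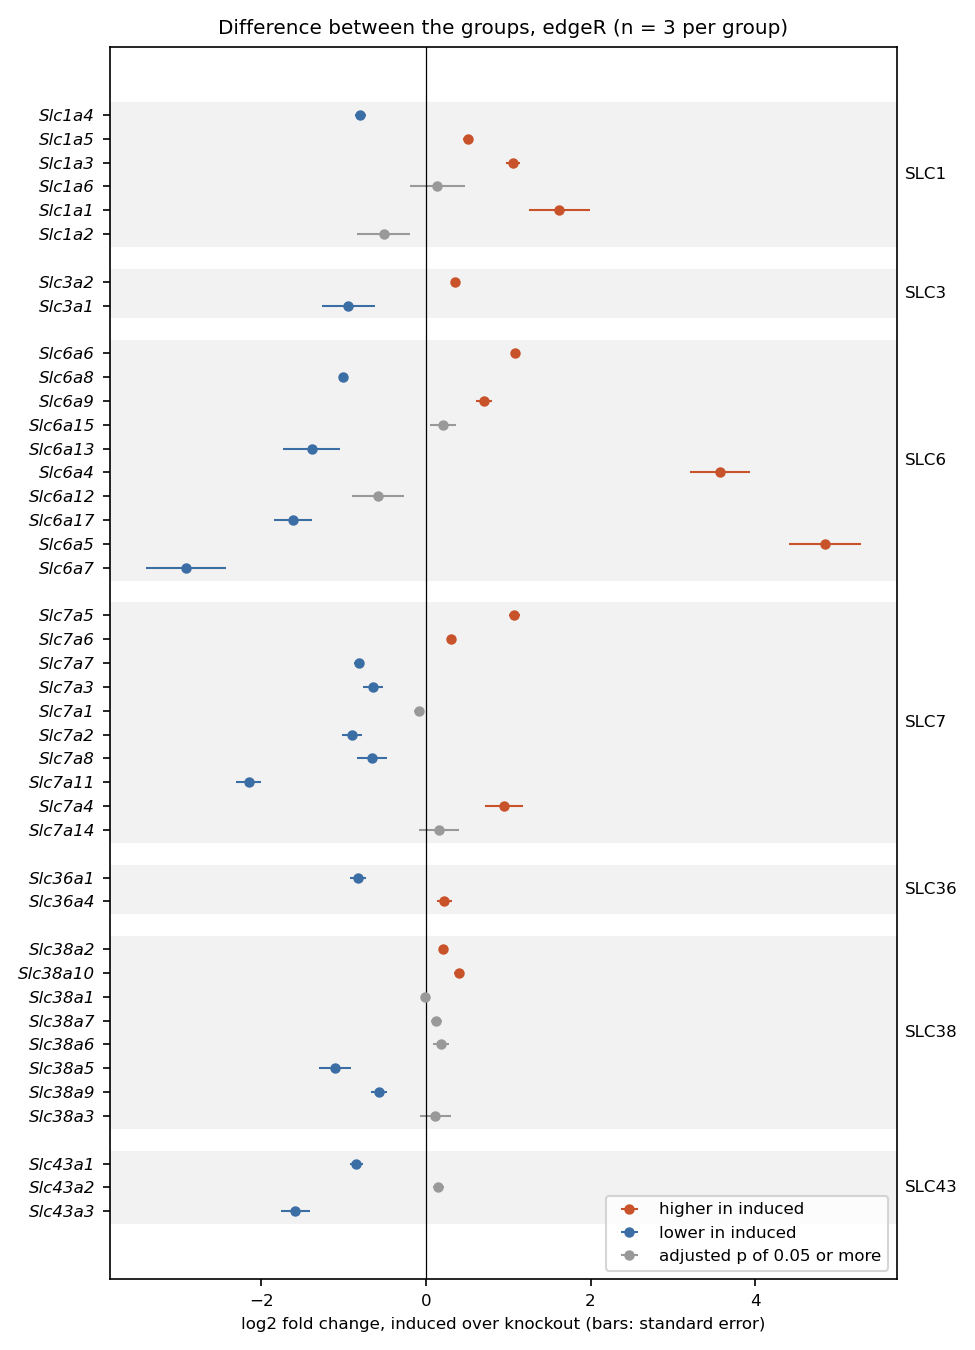
Log2 fold change of each tested transporter gene, induced over knockout, with its standard error (3 libraries per group), grouped by family in the order of level per kb. Each family with more than 1 tested member except SLC43 holds genes on both sides of 0 that passed; in SLC43, 2 genes fell and 1 did not pass.

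Other genes of amino acid supply, from 6 lists, were read beside the carriers. Of 20 tested carriers outside the symbol rule, 9 rose and 7 fell (median log2 fold change 0.10), against 31.0% and 31.6% of all tested genes. The mitochondrial carriers of ornithine (Slc25a15, 15.4 to 25.4 CPM), serine (Sfxn1, 78.7 to 107.2 CPM) and aspartate with glutamate (Slc25a12, 9.38 to 12.7 CPM) rose. The peptide carriers Slc15a2 (103.6 to 26.7 CPM) and Slc15a3 (6.67 to 1.09 CPM) and the vesicular glutamate carrier Slc17a7 (12.5 to 3.59 CPM) fell. Slc15a3 is typical of macrophages, whose markers were lower as given above. Of 42 tested genes for synthesis and breakdown of amino acids, 14 rose and 18 fell (median -0.08), against the same 31.0% and 31.6%. The genes that rose included those of the serine and glycine enzymes Shmt2, from 159.3 to 330.1 CPM, and Gldc, of the glycine cleavage system, from 32.3 to 76.7 CPM. Other serine and glycine genes of the list rose, did not pass or fell. Odc1, which starts polyamine synthesis from ornithine, rose from 479.4 to 1035 CPM. Arg1, the arginase gene, fell from 65.4 to 1.17 CPM, Pycr1, which makes proline, from 42.6 to 8.29 CPM, and Ass1, of arginine synthesis, from 136.7 to 84.6 CPM.

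Genes around glutathione fell in 15 of 21 tested cases and rose in 2, with a median log2 fold change of -0.46 against 0.00380 over all genes, of which 31.6% fell and 31.0% rose. Glrx, the glutaredoxin gene, fell from 18.6 to 6.51 CPM, Gpx4, whose product removes lipid peroxides, from 364.3 to 219.0 CPM and Gstm1, a glutathione transferase gene, from 40.5 to 18.9 CPM. Gpx1 (log2 fold change 0.28) and Ggt7 (0.44) rose. Macrophage markers fell in 9 of 9 tested cases in the same libraries, and their part in this list was not tested. Genes of the amino acid response, the pathway of the kinase GCN2 and of ATF4, fell in 11 of 18 cases and rose in 4 (median -0.30). This stands beside the same 31.6% and 31.0% over all genes. Atf3 (-1.83), Ddit4 (-0.92) and Atf5 (-0.58) had the smallest p among those that fell, and Eif2ak4 (0.31), Eif4ebp1 (0.20) and Stc2 (0.28) among those that rose. Eif2ak4 encodes GCN2 itself, which acts upstream of ATF4. Stc2 was lost without induced replicate 1 (adjusted p = 0.0686), where 2 genes of the list and not 4 rose.

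Of 37 tested genes of amino acid sensing by mTORC1, 5 rose and 17 fell (median -0.11), against 31.0% and 31.6% of all tested genes. Sesn3 (-1.45), Rragd (-0.45) and Tfe3 (-0.43) were among those that fell, and Rragb (0.71), the arginine sensor gene Castor1 (0.67) and Mtor (0.24) among those that rose. Among 13 tested genes of accessory and trafficking partners, 4 rose and 7 fell (median -0.24), against the same 31.0% and 31.6% of all tested genes. Nedd4l, a ubiquitin ligase that removes carriers from the surface, fell from 60.1 to 17.1 CPM, the galectin gene Lgals3 from 169.4 to 34.6 CPM and Txnip from 177.6 to 130.5 CPM. Lgals3 is also abundant in macrophages. Arl6ip5, which encodes a partner of EAAC1, rose from 53.1 to 75.3 CPM, and Itgb1, the gene of an integrin chain that binds CD98 (log2 fold change 0.34), and Heg1 (0.39) rose.

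**Figure D5:**
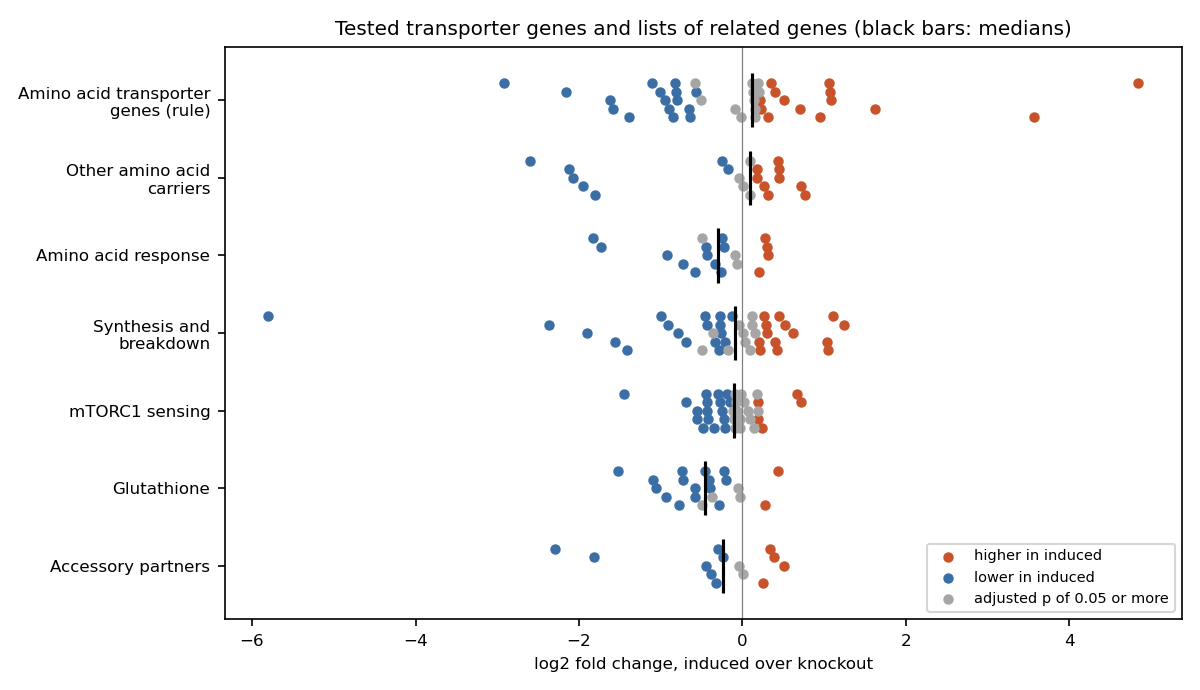
Log2 fold change, induced over knockout, of the 41 tested transporter genes and of the tested genes of 6 related lists, 1 point per gene, coloured by the edgeR call, with black bars at the medians. The bar of the glutathione list stands at -0.46 and that of the transporter genes at 0.12.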

How the data were processed

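The authors deposited raw read counts per gene and library, in whole reads, with columns for unstranded reads and for each strand. The tools named, per the submitters' processing notes, are STAR, bcl2fastq and DESeq2, with mm10 as the build and no version or annotation release. The library kit is stranded and selects poly(A) RNA, per the labels' protocols. Counts of column 4 were used, which held 96.2% to 96.3% of stranded gene reads. Rows that name no gene took 15.1% to 17.6% of reads and were left out, 6.79% to 7.66% being multimapped reads, which lowers genes with near-identical copies. The authors' deposited DESeq2 table gives a log2 fold change and an adjusted p-value per gene, per the file headers.

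Identifiers were matched to GENCODE M21 (GRCm38) for 55230 of 55471. edgeR 4.0.16 in R 4.3.3 was run on all genes passing filterByExpr, with TMM scaling, robust quasi-likelihood dispersion and group as the only term. It was checked on simulated counts that had the same dispersion for every gene and far fewer changed genes than passed here. That check therefore does not show how the test behaves in these data. The standard error is the log2 fold change over the square root of F. Alternatives used DESeq2 1.42.0 and limma 3.58.1 among others. The members and lists were chosen with earlier results of these data known. All tested members may be named; values per library are given for members past the threshold with at least a 2-fold change, the 10 highest per kb, the heavy chains and side-by-side genes, and for further members named after their values were seen. From each list, up to 3 genes per direction with the smallest p are named.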

Additional observations from a re-analysis of the deposited data

How the results depend on the processing

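Counts of transporter genes past the threshold, 14 higher and 16 lower, stayed within 1.5 times of these values under every alternative run (DESeq2 or upper-quartile scaling, 2 other filters on low counts, unstranded counts, DESeq2, limma-voom, an adjusted p of 0.01, the replicate block, and leaving out each library) except a test against a 2-fold change (edgeR's glmTreat), which called 2 higher and 4 lower. That test asks for more than any difference, so it calls fewer genes by construction. In the same test the lists gave 0 higher for other carriers, 0 higher and 2 lower for the amino acid response, 1 higher and 5 lower for synthesis and breakdown, 0 higher and 1 lower for mTORC1 sensing, 0 higher and 1 lower for glutathione, and 0 higher and 2 lower for accessory partners. Each count of 0 was also 0 at an unadjusted p under 0.05, and no other tool was run against that fold. Without induced replicate 1 the amino acid response had 2 higher; the cause was not tested. All 30 called transporter genes kept their sign under every alternative in which they were tested. Reversals touched only genes that did not pass: leaving out each library in turn put Slc1a6 (log2 fold change 0.14) between -0.060 and 0.58, below 0 without induced replicate 2 or knockout replicate 1 or 2, and Slc38a1 between -0.041 and 0.0072, above 0 without induced replicate 2. With the longest coding transcript as length, an alternative chosen after seeing the data, the 10 highest members were the same 10, but in another order, with Slc38a2 (109.9 CPM per kb over all libraries) ahead of Slc6a6 (83.8 CPM per kb).

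Same-numbered replicates did not deviate together (correlations of deviations 0.00697, 0.0779 and 0.0671 over tested genes), so the numbers were not taken as pairs. With the replicate number as a block, 15 genes were higher and 16 lower, Slc38a6 being the addition. Depth limits the 19 untested genes and those below about 1 CPM.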

Other observations

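Among the 19 transporter genes with too few reads to test, several were counted mainly in one group. Slc36a2, the proline and glycine carrier of kidney, had 24 reads over the 3 knockout libraries and 3 over the induced ones. Slc7a9, the light chain of the renal cystine carrier, had 18 and 3 reads. Slc38a8, a glutamine carrier gene of the eye, had 7, 10 and 1 against 2, 1 and 0 reads, so that its groups overlapped. Slc6a14, a broad carrier of neutral and cationic amino acids, had 1 and 9 reads, and Slc7a15 none and 5 reads. These were chosen after their values were seen, and no test was made. In the authors' deposited table, Slc36a2 has an adjusted p-value of 0.0287 and Slc7a9 one of 0.0675.

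The authors' deposited table lists all 41 tested genes with the same sign as found here. Its log2 fold change lies within 0.1 of the value here for 37 of them and differs by more than 0.5 for 2, Slc7a11 and Slc6a5. The deposited values of these 2 genes, -0.47 and 4.28, lay near those found here with unstranded counts, -0.47 and 4.21. The deposited table has 27 genes past an adjusted p-value of 0.05 that also passed here, and the 3 that passed only here are Slc1a1, Slc3a1 and Slc36a4.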
